A study of Mus musculus with 34 samples.

Results

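RNA from the libraries labelled granule cells was compared with RNA from the libraries labelled hippocampus, both from mice given vehicle. The comparison used 10 of the 34 libraries of the series, taken by their labels: 4 of granule cells and 6 of hippocampus, with the fluoxetine libraries left out. Both groups are labelled wild type and hippocampal tissue, and the label states vehicle as the only treatment of both. For all of them the labels give translating ribosome affinity purification (TRAP) as the extraction, a method that pulls down tagged ribosomes together with the mRNAs they carry. Which cells carried the ribosome tag and what drove it is not in the labels, nor is whether the hippocampus libraries hold ribosome-bound or input RNA. Dose, duration, age, sex and any pooling of animals are likewise not given in the sources used here. The 6 mossy-cell vehicle libraries, from neurons of the dentate hilus, are cited for their levels alone.

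Granule cells are the principal neurons of the dentate gyrus. They take input from the entorhinal cortex and send mossy fibres to hilar mossy cells and to CA3 pyramidal cells, and they are among the few neurons still produced in the adult mouse. Their identity depends on the homeobox factor Prox1, and they are known for calbindin, for zinc and opioid peptide in their terminals, and for strong BDNF expression. The hippocampus as a whole also holds pyramidal cells of CA1 to CA3, interneurons, glia and vessels, and granule cells themselves. A granule-cell transcript can therefore be present in both groups. Its ratio measures the excess over a mixture if the hippocampus libraries hold RNA of all these cells, which the labels do not state.

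The granule-cell libraries held 14111950 to 39988227 counts and the hippocampus libraries 27317483 to 44952269 counts, with 14579 to 16462 and 17600 to 18110 genes detected. The granule-cell libraries were the more variable group: across genes, the SD of a library's log2 deviation from its group mean was 0.35 to 0.48, against 0.13 to 0.19 in hippocampus. Granule-cell libraries 1 and 4 stood apart from libraries 2 and 3 on the second principal component, which held 20.7% of the variance. They also had a lower share of Rn45s, the ribosomal RNA precursor, at 0.940% and 1.13% of counts against 3.59% and 5.42%, and results that rest on one of these pairs are given without it. Library numbers below refer to granule cells unless hippocampus is named. The 4 granule-cell libraries sit in a table of their own with their own library numbers, so source and library set cannot be told apart. No label says that each replicate is its own animal, and a p-value then reflects no more than the spread among these 10 libraries. Levels below are given as counts-per-million (CPM) of a library size scaled by the trimmed mean of M-values (TMM). Changes are log2 differences, granule cells minus hippocampus, with a standard error (SE) and a p-value adjusted by Benjamini-Hochberg over all genes tested. The SE is the absolute change divided by the square root of the F statistic of the edgeR quasi-likelihood test.

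Of 15495 genes tested, 2611 were higher and 1896 lower in the granule-cell libraries at an adjusted p below 0.05 in edgeR. Together these 4507 genes are 29.1% of the genes tested, with 16.9% higher and 12.2% lower. Each gene list below is read against these shares. The share called was larger, 36.5%, among the 9775 genes with an average log2 CPM of 3 or more. A list of well-expressed genes called near that share is not set apart by its count. The median change over all genes was 0.01. Upper quartile scaling moved that median to -0.10 and turned the split to 1852 higher and 2518 lower, so 42.4% of calls were higher instead of 57.9%. Directions below are therefore relative to the TMM scale, and a list whose median changes sign between scalings is named as such. Among the called genes, 649 were at least 2-fold higher and 863 at least 2-fold lower by the fitted change.

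**Figure D1:**
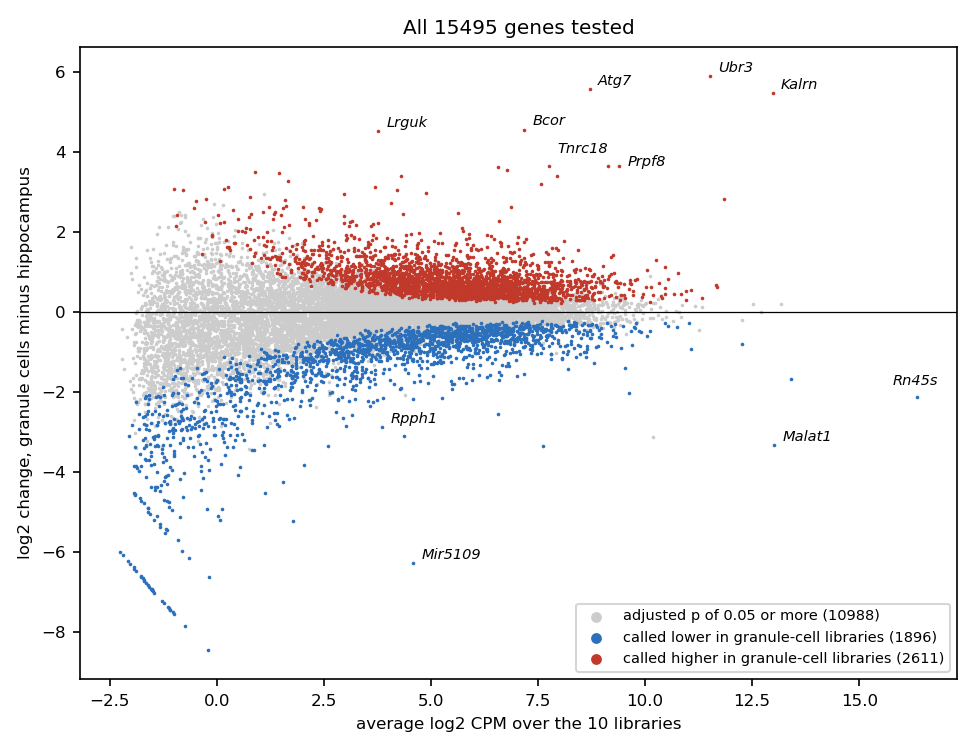
Each point is 1 of 15495 genes, with its average log2 CPM over the 10 libraries on the x axis and its log2 change, granule cells minus hippocampus, on the y axis. Red points (2611) passed as higher, blue points (1896) as lower and grey points did not pass; among the named points, Ubr3, Atg7 and Kalrn lie highest and Mir5109 and Malat1 lowest.

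The granule-cell markers went in the direction of the label. The list was chosen with earlier results of these data known, so its counts are no independent test of the label. Of 16 markers, all tested, 14 were higher in the granule-cell libraries, none was lower and 2 did not pass. For those 14 the lowest granule-cell library lay above the highest hippocampus library. Over all 15495 genes tested this held for 1903, and for 1914 every granule-cell library lay below every hippocampus library. The median change of the list was 1.35, against 0.01 for all genes tested. The summed level of the list was 2765 to 3003 CPM in granule cells and 1193 to 1285 CPM in hippocampus. In the mossy-cell libraries, put on a common TMM scale across tables, it was 482 to 571 CPM. The same count of 14 and 0 was obtained without libraries 1 and 4 and without libraries 2 and 3.

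Prox1, the homeobox factor that specifies and maintains granule cells (chromosome 1, 190118035 to 190170714 in GRCm38), stood at 319, 344, 397 and 352 CPM in the 4 granule-cell libraries and at 199 to 220.1 CPM (median 205) in the hippocampus libraries. All granule-cell values lay above all hippocampus values, and they lay close together. The log2 change was 0.77 ± 0.08 (SE, adjusted p = 4.37e-05), which is a 1.71-fold difference. C1ql2, a secreted C1q-like protein that mossy fibre terminals release to recruit kainate receptors (chromosome 1, 120340582 to 120343174), stood at 91.04, 55.9, 43.7 and 76.8 CPM against 14.8 to 20.3 CPM (median 16.8). Libraries 1 and 4 were the higher pair, and no granule-cell value came near the hippocampus range. Its change was 1.96 ± 0.19 (SE, adjusted p = 1.9e-05). Dsp, desmoplakin, the plakin that anchors intermediate filaments at desmosomes (chromosome 13, 38151294 to 38198577), stood at 62.2, 101, 175 and 92.1 CPM against 20.3 to 33.8 CPM (median 29.5). Here library 3 was the highest, and the groups again did not overlap. The change was 1.95 ± 0.24 (SE, adjusted p = 0.000114).

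The promoters of these 3 defining markers are shown because the genes were higher in granule cells and bear on the label, although their order across the 4 libraries differed. Each sequence is the 250 bases upstream of the annotated start on the gene's own strand, from RefSeq GRCm38.p6. Capitals mark the GC box GGGCGG and the E-box CAGATG on either strand (CCGCCC and CATCTG are their reverse complements), and the marked motifs do not overlap. The windows lie at chr1:190170828-190171077 on the minus strand for the first of 2 Prox1 start sites, at chr1:120340332-120340581 on the plus strand for C1ql2 and at chr13:38151044-38151293 on the plus strand for Dsp.
Prox1: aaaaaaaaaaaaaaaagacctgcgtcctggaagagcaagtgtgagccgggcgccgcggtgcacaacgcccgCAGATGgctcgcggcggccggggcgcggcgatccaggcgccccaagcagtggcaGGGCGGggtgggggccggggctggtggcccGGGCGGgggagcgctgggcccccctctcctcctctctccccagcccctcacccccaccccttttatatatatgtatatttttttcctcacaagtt
C1ql2: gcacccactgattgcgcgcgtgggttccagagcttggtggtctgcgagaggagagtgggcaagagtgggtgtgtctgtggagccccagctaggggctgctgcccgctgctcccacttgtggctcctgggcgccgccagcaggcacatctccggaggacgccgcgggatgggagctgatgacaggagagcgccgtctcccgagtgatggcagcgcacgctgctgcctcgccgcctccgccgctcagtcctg
Dsp: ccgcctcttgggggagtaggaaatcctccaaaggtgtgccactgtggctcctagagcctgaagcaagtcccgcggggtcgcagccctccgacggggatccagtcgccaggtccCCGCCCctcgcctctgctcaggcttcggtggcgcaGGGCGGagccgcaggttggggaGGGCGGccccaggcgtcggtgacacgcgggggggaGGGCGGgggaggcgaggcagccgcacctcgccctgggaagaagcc
The Prox1 window printed held 2 GC boxes and 1 E-box, and the window of its second start site, not printed, held 1 GC box and no E-box. The Dsp window held 4 GC boxes and no E-box, and the C1ql2 window held neither motif. Over 32851 promoter windows of the same length, 32.7% held the GC box and 14.4% the E-box. The printed windows were 64.8%, 68.8% and 72.4% G or C for Prox1, C1ql2 and Dsp. A match is a description of the letters and no evidence of binding.

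The other markers differed in size. Sema5a, a transmembrane semaphorin that limits synapse formation on granule cells (chromosome 15, 32244810 to 32696341), stood at 607, 409.9, 372 and 514 CPM against 126 to 154 CPM (median 138), and all 4 values were above the hippocampus range. Its change was 1.76 ± 0.13 (SE, adjusted p = 2.85e-06). Plk5, a polo-like kinase family member, differed by 1.63 ± 0.16 (SE, adjusted p = 2.64e-05), and Npnt, nephronectin, an integrin ligand of the extracellular matrix, by 1.59 ± 0.15 (SE, adjusted p = 1.44e-05). C1ql3, the relative of C1ql2, was at 92.5 to 134 CPM against 33.5 to 45.5 CPM, a change of 1.57 ± 0.13 (SE). Calb1, calbindin, the calcium buffer of mature granule cells (chromosome 4, 15881264 to 15908064), stood at 366, 261, 294 and 362 CPM against 133 to 159 CPM (median 142). Libraries 1 and 4 were again higher than 2 and 3, with no overlap between groups, and the change was 1.16 ± 0.11 (SE, adjusted p = 1.55e-05). Tdo2, which starts tryptophan breakdown along the kynurenine pathway, was at 17.4, 11.4, 21.8 and 20.9 CPM against 5.83 to 8.25 CPM (median 6.72), a change of 1.39 ± 0.20 (SE, adjusted p = 0.000329).

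Dock10 (a guanine nucleotide exchange factor for small GTPases), Stxbp6 (amisyn, a SNARE-binding protein) and Trpc6 (a cation channel) were higher by 1.37, 1.34 and 1.31. Lct (lactase, a marker of the dentate gyrus in mouse) and Rfx3 (a factor of ciliary genes) were higher by 0.95 and 0.89. The 2 that did not pass were Gabrd and Glis3. Gabrd, the delta subunit of extrasynaptic GABA-A receptors, stood at 12.4, 10.6, 11.3 and 18.9 CPM against 8.82 to 13.3 CPM (median 9.8), and its log2 difference was 0.32 ± 0.21 (SE, adjusted p = 0.269). Glis3, a zinc-finger factor, stood at 33.7, 26.8, 11.2 and 25.1 CPM against 20.2 to 27.3 CPM (median 26.5), with library 3 lowest, and its difference was -0.08 ± 0.24 (SE, adjusted p = 0.837). Both pairs of groups overlapped.

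**Figure D2:**
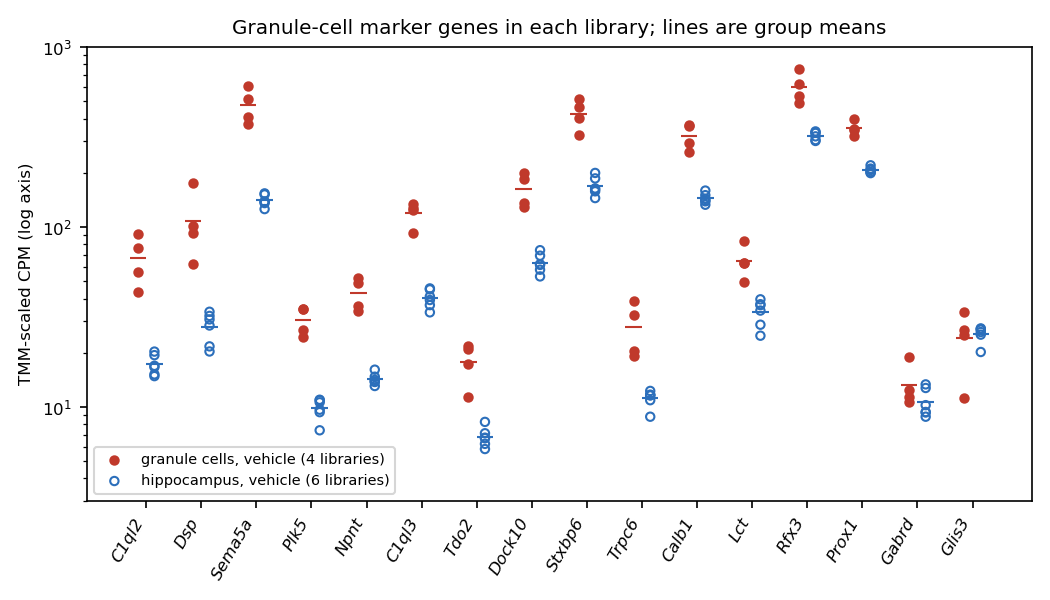
TMM-scaled CPM on a log axis for the 16 granule-cell markers, ordered by their log2 change. Filled red points are the 4 granule-cell libraries, open blue points the 6 hippocampus libraries, and short lines the group means; for 14 genes the red points lie above all blue points, and for Gabrd and Glis3 they overlap.

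The genes with the largest differences were not among these markers. The 12 higher genes named by rule were Ubr3, Atg7, Kalrn, Bcor, Lrguk, Tnrc18, Prpf8, Gse1, Yeats2, Bahcc1, Hic2 and Prr12, with log2 changes of 5.90 down to 3.39. The rule asked for groups that do not overlap and for a mean log2 CPM no lower than 3. Ubr3, an E3 ubiquitin ligase (chromosome 2, 69897246 to 70024013), stood at 6912, 6249, 9945 and 5247 CPM in granule cells against 110.0 to 128 CPM (median 119) in hippocampus. That is a 59.6-fold difference, with a log2 change of 5.90 ± 0.17 (SE, adjusted p = 1.86e-10). Atg7, the activating enzyme that starts conjugation in autophagy (chromosome 6, 114643097 to 114860614), stood at 975, 951, 971 and 1148 CPM against 18.6 to 24.3 CPM (median 21.2). Its 3 lower granule-cell values lay within a narrow range, with library 4 above them, and the change was 5.57 ± 0.11 (SE, adjusted p = 5.26e-12). Kalrn, kalirin, an exchange factor for small GTPases in dendritic spines (chromosome 16, 33969073 to 34573532), stood at 18099.6, 18676, 23867 and 17507 CPM against 369.5 to 491 CPM (median 461), a 44.3-fold difference and a change of 5.47 ± 0.13 (SE, adjusted p = 2.86e-11). Kalrn alone took 1.77% to 2.36% of all counts in the granule-cell libraries and 0.0367% to 0.0490% in the hippocampus libraries.

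In the mossy-cell libraries these 3 genes stood below every granule-cell library and above every hippocampus library. On the common scale across tables, Ubr3 stood at 734 to 1113 CPM, Atg7 at 82.4 to 139 CPM and Kalrn at 675 to 1215 CPM. The 9 others on the higher list include several nuclear proteins. Bcor, a corepressor of BCL6, differed by 4.55 ± 0.18, Gse1, a subunit of histone deacetylase complexes, by 3.63 ± 0.21, and Yeats2, a reader subunit of the ATAC acetyltransferase complex, by 3.61 ± 0.13 (SE). Bahcc1, a BAH-domain chromatin protein, differed by 3.53, Hic2, a zinc-finger repressor, by 3.40, and Tnrc18 and Prr12 by 3.65 and 3.39. Prpf8, the core protein of the spliceosome's U5 particle, stood at 811, 1169.6, 3036 and 969 CPM against 92.3 to 140.3 CPM. Library 3 was far above the others, and the change was 3.64 with it and 3.03 without it. Lrguk, a leucine-rich-repeat protein needed for sperm formation in mice, stood at 8.74, 42.5, 60.3 and 15.8 CPM against 1.06 to 1.8 CPM, a change of 4.51 ± 0.45 (SE, adjusted p = 2.62e-05). The counts are per gene and do not show where in a gene the reads lie. With these 12 genes removed before scaling, 4496 genes were called.

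Among the 12 lower genes named by the same rule were several noncoding RNAs. Malat1, an abundant nuclear noncoding RNA of speckles (chromosome 19, 5795690 to 5802672), stood at 1334, 1263, 525 and 1998 CPM in granule cells against 8707 to 15476 CPM (median 13026) in hippocampus. Library 3 was lowest, all 4 values lay below the hippocampus range, and the change was -3.33 ± 0.32 (SE, adjusted p = 1.92e-05). In the mossy-cell libraries Malat1 stood lower still, at 60.1 to 145 CPM. Rpph1, the RNA of ribonuclease P, stood at 1.01, 4.27, 5.21 and 1.19 CPM against 20.4 to 24.7 CPM (median 21.7), a change of -2.87 ± 0.40 (SE, adjusted p = 0.000284). Mir5109 differed most on this list, at 0.0722, 0.175, 0.202 and 1.65 CPM against 26.1 to 63.3 CPM (median 38.3), a change of -6.27 that was -7.85 without library 4. Ftx, a noncoding RNA of the X-inactivation centre, differed by -2.21, and by -2.97 without library 2. In the mossy-cell libraries Rpph1 and Ftx were also low, at 0.461 to 1.25 CPM and 0.824 to 2.18 CPM. Mir5109 was not, at 46.7 to 156 CPM.

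Most of the other lower genes code for proteins. Klk8, neuropsin, a secreted serine protease, stood at 2.38, 2.27, 2.88 and 2.89 CPM against 11.8 to 13.2 CPM (median 12.3). The values lay close together within each group, and the change was -2.24 ± 0.19 (SE, adjusted p = 6.65e-06). Myl9, the regulatory myosin light chain of smooth muscle, differed by -2.35 (adjusted p = 0.000418), and Tbata, a protein of thymus, brain and testis, by -2.24 (adjusted p = 0.000259). Podxl2, a podocalyxin-like membrane protein, differed by -2.25, and by -2.83 without library 2. Rell2, a relative of the TNF receptor RELT, differed by -2.58, and by -3.38 without library 2. Sostdc1, a secreted inhibitor of BMP and Wnt signals, differed by -2.84 (adjusted p = 0.0123) and by -3.62 without library 2, with hippocampus values that ran from 3.93 to 22.2 CPM. Hemk1, a methyltransferase, differed by -2.18, and its hippocampus values also spread widely, from 6.3 to 25.2 CPM. Both were highest in hippocampus libraries 1, 2 and 4, Sostdc1 at 22.2, 21.2 and 15.7 CPM and Hemk1 at 21.4, 25.2 and 13.2 CPM, against at most 5.31 and 7.84 CPM in the other hippocampus libraries. In the same 3 libraries the summed choroid plexus and ependymal markers stood at 3917, 5797 and 1588 CPM, against 30.5 to 38.4 CPM in the other 3, and their part in these differences was not tested. The calls for Sostdc1 and Hemk1 were lost in limma-voom, at adjusted p = 0.327 and 0.252. The pseudogene Tmem181b-ps differed by -2.56, and its reads may be split with its gene copies.

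Markers of other cell types were present in the granule-cell libraries in sums below the hippocampus range for the CA1 and CA2, astrocyte, oligodendrocyte, immature granule-cell and blood lists, above it for the CA3 list, and overlapping it for the rest. In bulk samples, fewer cells of a type and less RNA per cell cannot be told apart. Of 14 CA1 and CA2 pyramidal markers, 7 were lower, none was higher and 7 did not pass, with a median change of -0.67. Wfs1, the endoplasmic reticulum protein wolframin of CA1 cells, stood at 37.6, 45.03, 45.4 and 52.2 CPM against 89.9 to 109 CPM (median 105). All granule-cell values were below all hippocampus values, and the change was -1.19 ± 0.11 (SE, adjusted p = 1.53e-05). Fibcd1, a membrane receptor of CA1 cells, was lower by 0.87 on the log2 scale and Rgs14, a CA2 regulator of G protein signalling, by 0.75. Pou3f1, Gpr161 and Lefty1 changed by -0.91, -1.47 and -0.81. Crym, a thyroid hormone-binding protein also of CA1 cells, stood at 157 to 221 CPM against 172 to 209.5 CPM, a difference of -0.01 (adjusted p = 0.941) that did not pass.

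The CA3 and mossy-cell markers were mixed. Of 10 CA3 markers 2 were higher, 2 were lower and 6 did not pass, and of 9 tested mossy-cell markers 3 were lower, none was higher and 6 did not pass. The medians were -0.20 and -0.18. The summed CA3 level was 838 to 1057 CPM against 660 to 758 CPM, higher in all 4 granule-cell libraries although the median member was lower, and 436 to 554 CPM in mossy cells. The summed mossy-cell level was 329, 139, 146 and 290.1 CPM against 251 to 276 CPM, above the hippocampus range in libraries 1 and 4 and below it in libraries 2 and 3. St18, a zinc-finger factor, and Nptx1, a pentraxin that clusters AMPA receptors, were the higher CA3 members, by 1.07 and 0.60. Cdh24 and Socs2 were the lower ones, by 3.05 and 0.58. The Cdh24 change was -4.11 without library 3, and the Socs2 call was lost in 7 of 10 fits without 1 library (adjusted p up to 0.0807). Drd2, the D2 dopamine receptor of mossy cells, stood at 1.8, 0.42, 1.82 and 1.05 CPM against 3.57 to 5.38 CPM (median 4.77), lower in every granule-cell library, and 25.8 to 41.8 CPM in mossy cells. Its change against hippocampus was -1.87 ± 0.40 (SE, adjusted p = 0.00424). Nmb, neuromedin B, and Ephb6, an Eph receptor without kinase activity, changed by -2.33 and -1.07. Calb2, calretinin, a mossy-cell marker in mouse, stood at 13.1 to 17.9 CPM against 12.5 to 17.2 CPM, and 249.8 to 387 CPM in the mossy-cell libraries. Its difference of 0.02 (adjusted p = 0.923) did not pass. Without libraries 1 and 4 the mossy-cell list had 6 lower and none higher, and without libraries 2 and 3 it had 3 lower and 2 higher.

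The immature granule-cell markers also went both ways, with 1 of 11 higher, 2 lower and 8 that did not pass, and a median of -0.82. Dcx, doublecortin, the microtubule protein of newborn neurons, stood at 22.96, 29.5, 17.2 and 20.04 CPM against 31.2 to 56.7 CPM (median 44.6). All granule-cell values were lower, and the change was -0.99 ± 0.19 (SE, adjusted p = 0.00205). Stmn1, stathmin, was lower by 0.34. Neurod1, a differentiation factor that mature granule cells also express, stood at 60.1, 70.5, 76.8 and 61.5 CPM against 30.9 to 35.6 CPM (median 32.8) and was higher by 1.03 ± 0.10 (SE). Sox11 did not pass, at -0.47 (adjusted p = 0.0618), but passed without library 3 (adjusted p = 0.0109). Upper quartile scaling gave 5 lower on this list, leaving out library 1 or library 2 gave 4, and leaving out libraries 2 and 3 gave 8.

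Interneuron markers split, with 4 of 13 tested members higher, 5 lower, 4 that did not pass and a median of -0.14. Gad1, the glutamate decarboxylase that granule cells also express (chromosome 2, 70553072 to 70602014), stood at 172, 173, 183 and 159 CPM against 90.5 to 104 CPM (median 96.1). The 4 values lay close together above the hippocampus range, and the change was 0.82 ± 0.08 (SE, adjusted p = 2.57e-05). Gad2, its paralog, was at 167 to 278 CPM against 268 to 320.0 CPM and lower, by 0.51 (adjusted p = 0.0102), with 1 library inside the hippocampus range. Sst, somatostatin, stood at 245, 119, 75.5 and 282 CPM against 63.8 to 77.5 CPM (median 69.4), highest in libraries 1 and 4 and within the hippocampus range in library 3. Its change was 1.35 ± 0.28 (SE, adjusted p = 0.00334), and 0.47 without libraries 1 and 4. Lamp5 and Reln, both of neurogliaform interneurons, were higher by 0.65 and 0.61. Pvalb, Lhx6 and Erbb4, of parvalbumin and medial ganglionic eminence interneurons, changed by -0.68, -0.68 and -1.18. Slc32a1, the vesicular GABA transporter, stood at 3.47, 18.9, 18.2 and 21.3 CPM against 14.6 to 17.8 CPM (median 16.2) and did not pass, at -0.05 (adjusted p = 0.927). The summed level of the list was 672 to 914 CPM against 675 to 746 CPM, and 3377 to 4649 CPM in mossy cells. Its part in the results on GABA genes and peptides below was not tested.

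Most astrocyte markers and a part of the oligodendrocyte markers were lower. Of 13 astrocyte markers 8 were lower and 1 higher, with a median of -0.70, and of 12 oligodendrocyte markers 6 were lower and none higher, with a median of -0.72. Aldoc, the aldolase of astrocytes, stood at 259.6, 179, 238 and 290.3 CPM against 410.5 to 472 CPM (median 423), a change of -0.85 ± 0.12 (SE, adjusted p = 0.000376) without overlap. Aqp4 (the water channel of astrocyte endfeet), Slc1a2 (the main glutamate transporter) and Fgfr3 changed by -0.83, -0.49 and -1.44, and Ntsr2 by -0.70. Gfap, the astrocyte filament protein, stood at 26.1, 51.99, 58.9 and 34.7 CPM against 56.6 to 85.6 CPM (median 68.1). Its change was -0.71 ± 0.21 (SE, adjusted p = 0.0219), and the call was lost without library 4 (adjusted p = 0.0565) and in limma-voom (0.128). Slc4a4, a sodium bicarbonate cotransporter, was the 1 higher member, at 158 to 207 CPM against 99.9 to 115 CPM, by 0.75 ± 0.09 (SE). Among oligodendrocyte markers, Olig1 and Ermn changed by -0.89 and -0.84, and Opalin and Cnp, both lost in limma-voom, by -1.38 and -0.50. Mbp, myelin basic protein, stood at 273, 327, 216 and 256 CPM against 291 to 391 CPM (median 331). It did not pass, at -0.32 (adjusted p = 0.0772), but did without library 2 (adjusted p = 0.0209). The summed astrocyte level was 1388 to 1610 CPM against 1870 to 2253 CPM, and the oligodendrocyte level 682 to 855 CPM against 1038 to 1429 CPM. Neither list was near 0 in any granule-cell library.

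The remaining lists were small or unstable. Of 5 oligodendrocyte precursor markers 1 was higher and 2 lower, with a median of -1.08. Cspg4, the NG2 proteoglycan, stood at 30.2, 19.5, 59.1 and 27.6 CPM against 4.47 to 6.46 CPM (median 4.85), a change of 2.71 ± 0.27 (SE, adjusted p = 2.35e-05). Gpr17 on the same list changed the other way, by -1.81. Of 10 microglia markers 1 was higher, 1 lower and 8 did not pass, with a median of -0.62. Cx3cr1, the fractalkine receptor, was the higher one, by 1.42, lost in limma-voom (adjusted p = 0.0518), and Csf1r stood at 3.67 to 11.2 CPM against 4.47 to 6.19 CPM without passing, at 0.33 (adjusted p = 0.419). Without library 1 the list had 3 lower, without libraries 1 and 4 it had 1 higher and 4 lower, and without libraries 2 and 3 it had 3 of each. The summed microglia level was 29.2 to 47.1 CPM against 36.5 to 44.6 CPM. Of 6 meningeal fibroblast markers 1 was higher and 1 lower, with a median of -0.07, and both of the 2 tested blood markers were lower.

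Endothelial markers followed 1 library. Their summed level was 11.3, 53.3, 231 and 21.004 CPM in granule-cell libraries 1 to 4, against 46.3 to 85.9 CPM in hippocampus. Library 3 was above, and libraries 1 and 4 below, every hippocampus library. Of 11 members 1 was higher and 1 lower, with a median of 0.55, but 4 were lower without library 3, 6 were higher without libraries 1 and 4 and 9 were lower without libraries 2 and 3. Flt1, a VEGF receptor, stood at 2.09, 8.74, 48.3 and 0.917 CPM against 1.84 to 4.21 CPM (median 2.6). Its change of 2.40 (adjusted p = 0.0343) was 0.46 without library 3, with the call lost there and in 6 further fits without 1 library. Slco1a4, a transporter of brain endothelium, stood at 2.89, 7.06, 50.1 and 2.06 CPM against 5.6 to 9.01 CPM (median 6.78) and did not pass. Its difference of 1.18 was -0.77 without library 3. Of 9 choroid plexus and ependymal markers 2 were lower and none was higher, with a median of -1.90. Ttr, transthyretin of the choroid plexus, stood at 28.4, 561, 10.9 and 221 CPM against 3.04 to 5559 CPM (median 762), and did not pass, at -3.13 (adjusted p = 0.22). The hippocampus range took in all 4 granule-cell values. Its difference was -4.38 without granule-cell library 2 and -2.35 without hippocampus library 2.

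**Figure D3:**
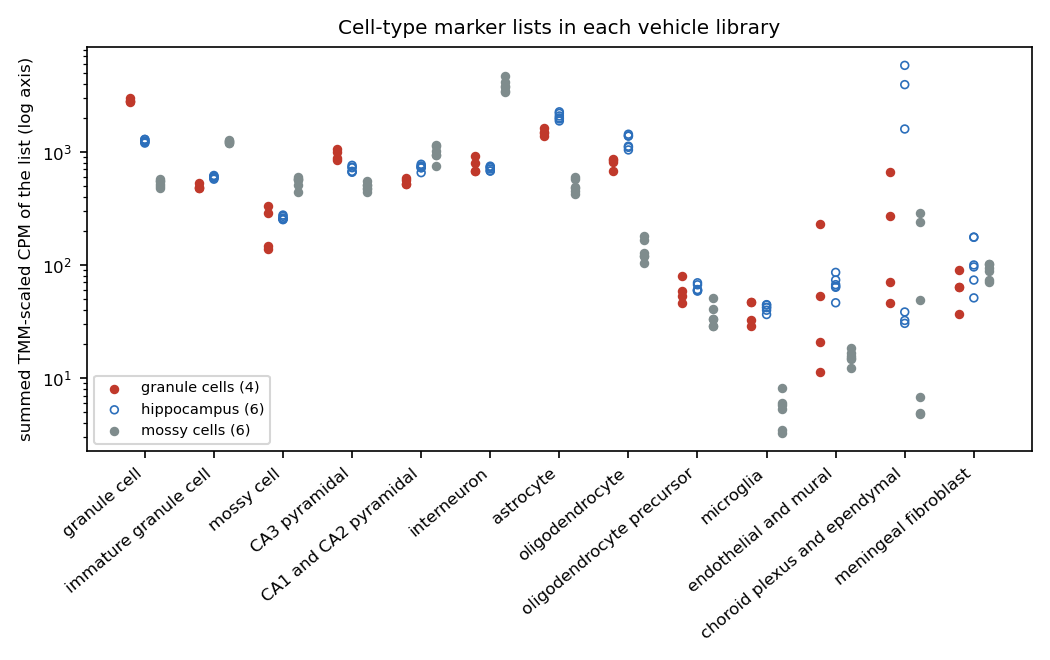
Summed TMM-scaled CPM on a log axis for each cell-type marker list, with 1 point per vehicle library: granule cells (filled red, 4), hippocampus (open blue, 6) and mossy cells (filled grey, 6, on a common scale across tables). The granule-cell list is highest in the red points at 2765 to 3003 CPM, and the endothelial list spans 11.3 to 231 CPM within them.

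Among transcription factors of forebrain excitatory neurons, more were called higher than lower. Of 24 members 10 were higher and 3 lower, with a median of 0.24. Klf9, a zinc-finger factor induced by glucocorticoid and thyroid hormone (chromosome 19, 23141226 to 23168134), stood at 398, 331, 312 and 325 CPM against 116 to 138 CPM (median 124). The 4 values lay above the hippocampus range, and the change was 1.44 ± 0.10 (SE, adjusted p = 1.63e-06). Bhlhe22, a bHLH repressor of dentate neurons, stood at 229.9, 156, 123 and 175 CPM against 46.98 to 56.6 CPM (median 51.3), a change of 1.72 ± 0.14 (SE, adjusted p = 7.52e-06). Neurod2 and Smad3, a bHLH factor and a mediator of TGF-beta signals, were higher by 0.62 and 0.86. Neurod6, the bHLH factor of pyramidal cells, went the other way, at 251, 165, 142 and 149 CPM against 343 to 385 CPM (median 370.4). All its granule-cell values were below the hippocampus range, and the change was -1.06 ± 0.15 (SE, adjusted p = 0.000252). Cux2, a homeobox factor, and Pou3f1 were the other lower members, and Cux2 changed by -1.65. With upper quartile scaling the list had 7 higher and 4 lower, without libraries 1 and 4 it had 13 and 6, and without libraries 2 and 3 it had 9 and 5.

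Synaptic adhesion genes, which join the sides of a synapse, were also called higher more often than lower. Of 33 C1q-like, cerebellin and adhesion genes tested, 13 were higher and 2 lower, with a median of 0.27. Lrrtm4, a postsynaptic adhesion protein that binds heparan sulphate and is needed for excitatory synapses on granule cells in mice (chromosome 6, 80018877 to 80810143), stood at 92.3, 95.8, 78.7 and 124 CPM against 20.6 to 24.98 CPM (median 22.8). No library of either group came near the other, and the change was 2.09 ± 0.13 (SE, adjusted p = 7.76e-07), a 4.27-fold difference. Gpc4, a glypican and presynaptic ligand of Lrrtm4, was at 43.8 to 88.4 CPM against 27.8 to 36.1 CPM and higher by 1.13 ± 0.17 (SE). Slitrk3, an organiser of inhibitory synapses, and Slitrk2 were higher by 1.13 and 0.97, and Flrt3, a ligand of latrophilin, by 1.02. The cerebellins Cbln2 and Cbln4, secreted bridges between neurexins and delta receptors or DCC-family receptors, were the 2 lower members. They stood at 1.19 to 2.94 CPM and 2.71 to 4.84 CPM against 4.71 to 5.996 CPM and 5.59 to 8.42 CPM, with changes of -1.22 and -0.99. The list had 15 higher and 7 lower without libraries 2 and 3, 16 higher and 3 lower without libraries 1 and 4, and 4 lower without library 2.

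Cadherins and protocadherins, homophilic adhesion proteins, had 8 of 22 members higher and none lower, with a median of 0.30. Pcdh8, an activity-regulated protocadherin, stood at 25.3, 37.5, 49.1 and 61.04 CPM against 12.03 to 15.3 CPM (median 13.7), a change of 1.67 ± 0.20 (SE, adjusted p = 9.87e-05). Cdh9, a cadherin of dentate and CA3 neurons that acts at mossy fibre synapses, stood at 57.7, 53.6, 56.7 and 99.1 CPM against 24.2 to 32.3 CPM (median 31.4). Library 4 was well above the other 3, all of which were above the hippocampus range, and the change was 1.14 ± 0.17 (SE, adjusted p = 0.000416). Pcdh17 and Pcdh20 were higher by 0.93 and 0.92. Upper quartile scaling gave 7 higher and 1 lower, and the fit without libraries 1 and 4 gave 10 higher and 4 lower.

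Axon guidance genes were divided, with 8 of 47 higher and 9 lower and a median of -0.11. Besides Sema5a, Epha7, an Eph receptor, stood at 365, 239.7, 221 and 421 CPM against 115 to 155 CPM (median 129) and was higher by 1.24 ± 0.17 (SE). Efnb3, an ephrin ligand, stood at 105, 107, 103 and 109 CPM against 66.2 to 77.01 CPM (median 71.6), a change of 0.58 ± 0.08 (SE, adjusted p = 0.000324) with little spread among the 4 libraries. Unc5c, a netrin receptor, and Nrp1, a semaphorin receptor, were higher by 0.61 and 0.48. Epha6, a relative of Epha7, changed by -0.69, so these 2 Eph receptors went opposite ways. The higher count was 17 without libraries 1 and 4 and 6 without libraries 2 and 3. It was 5 without granule-cell library 2 or hippocampus library 1, 2, 4 or 6, and the lower count was 4 or 5 without granule-cell library 3 or hippocampus library 3, 4, 5 or 6.

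Among genes of the release machinery, more were called lower than higher. Of 33 members 13 were lower and 5 higher, with a median of -0.34. Vamp2, the main vesicle SNARE, stood at 1485, 1515, 1409 and 1398 CPM against 1827 to 1967 CPM (median 1879.8), a change of -0.38 ± 0.07 (SE, adjusted p = 0.00257). The difference was small but all 4 values were below the hippocampus range. Vamp1, its paralog, changed by -0.62 ± 0.09 (SE). The 5 higher members included Slc30a3, the transporter that loads zinc into mossy fibre vesicles, at 85.7, 95.3, 90.6 and 53.8 CPM against 39.99 to 47.2 CPM (median 45.6). Its groups did not overlap, and the change was 0.86 ± 0.14 (SE, adjusted p = 0.000863). Doc2b, a calcium sensor of release, and Cplx2, a complexin, were higher by 0.88 and 0.45, and Syn3, a synapsin, by 0.99. Syn1 stood at 1483, 619, 643 and 1518 CPM against 557 to 673 CPM (median 616), high in libraries 1 and 4 and within the hippocampus range in 2 and 3. Its change of 0.79 (adjusted p = 0.0235) was 0.03 without libraries 1 and 4. Slc17a7, the vesicular glutamate transporter of granule and pyramidal cells, did not pass, at -0.42 (adjusted p = 0.122), but was lower without library 2 (adjusted p = 0.00356). The list had 7 higher and 16 lower without libraries 1 and 4 and 8 higher and 15 lower without libraries 2 and 3.

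On the receiving side, ionotropic glutamate receptors had 2 of 17 members higher and 4 lower. Their median of 0.01 turned to -0.10 with upper quartile scaling. Gria3, an AMPA receptor subunit, stood at 341, 276, 261 and 376 CPM against 198 to 224 CPM (median 204), higher in all 4 libraries, by 0.60 ± 0.11 (SE). Grid1, a delta receptor that binds cerebellin, was higher by 0.82. Grin2a, an NMDA receptor subunit, was at 148 to 189 CPM against 199 to 263 CPM and lower by 0.57 ± 0.11 (SE). The kainate subunits Grik1 and Grik5 changed by -1.52 and -0.74. Grik5 was lowest in library 1, and the Grik1 call was lost in limma-voom (adjusted p = 0.0951). Leaving out libraries 1 and 4 gave 5 higher and 4 lower with a median of 0.13, and leaving out libraries 2 and 3 gave 2 higher and 6 lower with a median of -0.27.

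Of 7 metabotropic glutamate receptors 2 were higher and 1 lower. Grm2, the autoreceptor of mossy fibre terminals, stood at 47.7, 65.97, 68.9 and 24.5 CPM against 21.9 to 31.5 CPM (median 29.3). Library 4 lay inside the hippocampus range and the other 3 above it, and the change was 0.88 ± 0.23 (SE, adjusted p = 0.0133). Grm4 was near the lower end of what was tested, at 0.138 to 1.15 CPM against 2.05 to 2.21 CPM, and changed by -1.86, or -2.45 without library 2. The median of this list, 0.07, was -0.04 with upper quartile scaling, and its lower count was 3 without library 2. Without libraries 2 and 3 it had 1 higher and 3 lower, with a median of -0.17.

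Among 14 GABA-A and GABA-B subunits 5 were higher and 2 lower on the TMM scale, with a median of 0.26, and 1 and 2 with upper quartile scaling. Gabra2 and Gabrb1 were lower, without overlap. Gabra2 stood at 26.9, 18.2, 16.8 and 28.8 CPM against 36.9 to 59.2 CPM (median 44.998), a change of -1.09 ± 0.19 (SE, adjusted p = 0.00132), and Gabrb1 changed by -0.81 ± 0.14 (SE). The higher count of 5 was 2 or 3 without granule-cell library 1 or 2 or any of hippocampus libraries 1 to 5. It was 2 without libraries 1 and 4 and 7 without libraries 2 and 3, and 2 and 3 members were then lower.

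Ion channels were divided. Of 49 potassium channel genes 11 were higher and 9 lower, and the median of 0.04 was -0.08 with upper quartile scaling, where 8 were higher and 12 lower. Kcnj2, the inward rectifier Kir2.1 (chromosome 11, 111066164 to 111076821), stood at 51.98, 40.9, 27.9 and 27.1 CPM against 9.8 to 12.5 CPM (median 10.2). Every granule-cell library lay above the hippocampus maximum, with library 1 highest, and the change was 1.77 ± 0.19 (SE, adjusted p = 3.94e-05). Kcnj4, the related Kir2.3, was at 14.8 to 27.4 CPM against 8.47 to 12.4 CPM, a change of 1.06 ± 0.19 (SE). Kcnk1, a 2-pore-domain channel, and Kcnip4, a partner of A-type channels, were higher by 0.98 and 0.89. Kcnq3, a subunit of M-current channels, stood at 13.6, 48.2, 45.6 and 24.1 CPM against 66.5 to 76.6 CPM (median 72.03), lowest in libraries 1 and 4, and changed by -1.12 ± 0.28 (SE). Kcnk9, the acid-sensitive TASK-3, changed by -1.496. Leaving out libraries 1 and 4 gave 15 higher and 15 lower with a median of -0.05, and leaving out libraries 2 and 3 gave 14 higher and 13 lower.

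Of 38 sodium, calcium, HCN and TRPC channel genes 6 were higher and 6 lower, with a median of -0.02. Scn3a and Scn8a, pore subunits of sodium channels, were at 60.3 to 72.5 CPM and 343 to 532 CPM against 35.6 to 52.9 CPM and 240.5 to 319 CPM, higher by 0.64 and 0.61. Cacnb2 and Cacna2d1, auxiliary calcium channel subunits, were higher by 0.53 and 0.51, in every library. Without libraries 2 and 3 this list had 8 higher and 13 lower, without libraries 1 and 4 it had 10 higher and 7 lower with a median of 0.11, and its lower count was 3 without granule-cell library 4 or hippocampus library 1, 3, 4, 5 or 6.

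Calcium-binding and calcium-handling genes had 10 of 33 members lower and 6 higher, with a median of 0.02 that was -0.09 with upper quartile scaling. Hpca, hippocalcin, the neuronal calcium sensor enriched in pyramidal cells (chromosome 4, 129111570 to 129122036), stood at 1469, 1376, 1396 and 1422 CPM against 2329.7 to 2909.6 CPM (median 2694). The 4 values differed little from each other and lay far below the hippocampus range, and the change was -0.92 ± 0.09 (SE, adjusted p = 1.76e-05). Ncald, neurocalcin delta of the same family, went the other way, at 799, 816, 829 and 884 CPM against 387 to 492 CPM (median 423), a change of 0.94 ± 0.09 (SE, adjusted p = 1.53e-05). Hpcal1, another relative, was higher by 0.75. The sodium-calcium exchangers also split: Slc8a2 stood at 112 to 156 CPM against 63.3 to 80.2 CPM, a change of 0.96 ± 0.11 (SE), and Slc8a1 at 365 to 414 CPM against 511 to 599 CPM, a change of -0.55 ± 0.08 (SE). Camk4, a nuclear calmodulin kinase, was lower by 0.97 ± 0.11 (SE). Vsnl1, a visinin-like sensor, stood at 3198, 1021, 979 and 2819 CPM against 1108 to 1192 CPM (median 1129.9). Its change of 0.82 (adjusted p = 0.0482) was -0.18 without libraries 1 and 4, and the call was lost in 8 of 10 fits without 1 library. For the whole list, leaving out libraries 1 and 4 gave 13 higher and 12 lower, and leaving out libraries 2 and 3 gave 8 higher and 9 lower with a median of -0.12.

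Because the study gave fluoxetine, a serotonin reuptake inhibitor, to its other mice, serotonin receptors bear on the vehicle comparison too. Of 12 tested genes for serotonin receptors and the transporter, 2 were higher, 1 lower and 9 did not pass, with a median of -0.37. Htr4, a receptor coupled to Gs and cAMP (chromosome 18, 62324204 to 62496577), stood at 9.46, 34.02, 23.5 and 25.5 CPM against 7.52 to 11.6 CPM (median 9.05). Library 1 lay inside the hippocampus range and the other 3 above it, and the change was 1.30 ± 0.28 (SE, adjusted p = 0.00423). In the mossy-cell libraries it stood at 2.64 to 4.56 CPM. Htr5a, coupled to Gi, stood at 34.3, 36.6, 19.5 and 34.4 CPM against 13.6 to 17.6 CPM (median 16.5), with library 3 the lowest and no overlap, and the change was 0.95 ± 0.17 (SE, adjusted p = 0.00171). Htr1f was near the lower end of what was tested, at 0.733 to 1.88 CPM against 1.83 to 4.08 CPM. Its change of -1.16 (adjusted p = 0.0394) lost its call in 8 of 10 fits without 1 library. Htr1a, the Gi-coupled receptor studied in the response of granule cells to antidepressants, stood at 28.7, 44.96, 47.3 and 43.02 CPM against 33.5 to 44.4 CPM (median 37.1). The groups overlapped and the difference of 0.11 ± 0.15 (SE, adjusted p = 0.612) did not pass. The list had 2 higher and 3 lower without libraries 1 and 4, and 4 higher and 3 lower without libraries 2 and 3.

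Of 15 dopamine, adrenergic and muscarinic receptors 4 were higher and 2 lower, with a median of -0.12. The D1 receptor, listed as Drd1a, stood at 8.3, 7.17, 6.58 and 6.1 CPM against 2.17 to 4.25 CPM (median 2.66), a low level that was higher in all 4 libraries, by 1.20 ± 0.27 (SE). The D2 receptor was lower, as given above, so these receptors went opposite ways. The higher count of this list was 1 without granule-cell library 4 and 2 without hippocampus library 1, 2, 4, 5 or 6, and the lower count was 4 without granule-cell library 2. Without libraries 2 and 3 it had 3 higher and 6 lower, and without libraries 1 and 4 its median was 0.02, with 3 higher and 1 lower. Among 17 nuclear hormone receptors for steroids and their targets 2 were higher and 2 lower, with a median of -0.26. Ddit4, a glucocorticoid-induced inhibitor of mTORC1, stood at 42.1, 20.2, 27.8 and 44.8 CPM against 12.8 to 17.5 CPM (median 15.4), a change of 1.14 ± 0.20 (SE, adjusted p = 0.00148). Rorb, an orphan nuclear receptor, changed by -0.82 ± 0.16 (SE), and 5 members of the list were lower without library 3. Without libraries 1 and 4 there were 5 higher and 3 lower, and without libraries 2 and 3 there were 3 higher and 8 lower.

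Of 18 neuropeptides tested 4 were higher and 4 lower. The median of the list, 0.38, was 0.19 without libraries 1 and 4, with 6 of each, and 0.04 without libraries 2 and 3, with 5 higher and 4 lower. Penk, proenkephalin, an opioid precursor (chromosome 4, 4133531 to 4138819), stood at 51.8, 34.6, 40.97 and 64.8 CPM against 9.6 to 14.8 CPM (median 12.3). All granule-cell values were above the hippocampus range, and the change was 1.97 ± 0.18 (SE, adjusted p = 1.53e-05), a 3.92-fold difference. Cartpt, the CART peptide precursor known in granule cells, stood at 13.2, 2.69, 7.31 and 15.6 CPM against 1.42 to 3.12 CPM (median 1.6), with library 2 inside the hippocampus range, and changed by 2.30 ± 0.43 (SE). Grp, gastrin-releasing peptide, was higher by 0.88, and Sst, given above, was the fourth. Npy, neuropeptide Y of interneurons, stood at 22.5, 19.5, 11.9 and 23.99 CPM against 29.4 to 41.3 CPM (median 34.2) and was lower by 0.84 ± 0.19 (SE). In mossy cells Sst and Npy stood at 1074 to 2466 CPM and 272 to 389 CPM.

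Genes of peptide handling and peptide receptors were both called in both directions. Of 15 granins and processing genes 2 were higher and 2 lower, so 26.7% were called against 29.1% of all genes tested. Their median of 0.00 was -0.11 with upper quartile scaling. Scg2, secretogranin II, stood at 121, 171, 133 and 257 CPM against 58.7 to 70.9 CPM (median 67.7), higher without overlap, by 1.35 ± 0.17 (SE). Pam, the amidating enzyme, was higher by 0.73, and no member was lower without hippocampus library 1, 4, 5 or 6. This list had 4 of each without libraries 1 and 4, and 4 higher and 1 lower without libraries 2 and 3. Of 23 peptide receptors 5 were higher and 5 lower, with a median of -0.63, so 43.5% were called against 29.1% of all genes tested. Their summed level was 369 to 483 CPM against 236 to 288 CPM, without overlap. Trhr, the receptor of thyrotropin-releasing hormone, stood at 39.5, 17.8, 18.4 and 18.9 CPM against 3.26 to 6.24 CPM (median 5.36). Library 1 was well above the other 3, which lay close together above the hippocampus range, and the change was 2.20 ± 0.27 (SE, adjusted p = 9.84e-05). Adcyap1r1, the PACAP receptor, was at 126 to 187 CPM against 61.4 to 73.8 CPM, a change of 1.23 ± 0.11 (SE, adjusted p = 1.38e-05), and Npy1r was higher by 0.86. Sstr3, a somatostatin receptor of neuronal cilia, changed by -0.63. The lower count of the receptors was 8 without granule-cell library 2 and 3 without granule-cell library 3 or hippocampus library 3, 4, 5 or 6. It was 7 without libraries 1 and 4 and 11 without libraries 2 and 3.

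Growth factors and their receptors had 8 of 29 members higher and 8 lower, with a median of -0.11. Ntf3, neurotrophin-3, a ligand of TrkC (chromosome 6, 126101412 to 126166910), stood at 17.5, 17.8, 15.4 and 21.3 CPM against 3.05 to 4.71 CPM (median 4.002). The 4 values were close to each other and all above the hippocampus range, and the change was 2.18 ± 0.18 (SE, adjusted p = 7.68e-06), a 4.53-fold difference. Bdnf, the ligand of TrkB (chromosome 2, 109674700 to 109727007), stood at 48.4, 67.1, 67.2 and 65.4 CPM against 34.4 to 37.4 CPM (median 35.3). Library 1 was the lowest, still above every hippocampus library, and the change was 0.80 ± 0.11 (SE, adjusted p = 0.00028). The higher members also included Inhba, the activin A subunit, by 1.51, Tgfb2, a TGF-beta ligand, by 0.77, and Acvr1c, a type I receptor, by 0.71. Fgf1, an acidic fibroblast growth factor, stood at 35.4, 27.9, 17.98 and 18.02 CPM against 48.4 to 61.3 CPM (median 51.8) and was lower by 1.12 ± 0.19 (SE). Fgf12, an intracellular relative that binds sodium channels, was lower by 0.66. The lower count of the list was 4 or 5 without any 1 hippocampus library.

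Activity-regulated genes had 8 of 22 members higher and none lower, with a median of 0.12. Arc and Egr1, common markers of neuronal activity, were not among them, at differences of 0.05 (adjusted p = 0.859) and -0.13 (adjusted p = 0.673). Btg2, an antiproliferative early gene, stood at 53.1, 51.1, 39.8 and 24.5 CPM against 8.49 to 13.2 CPM (median 11.03), a change of 1.95 ± 0.21 (SE, adjusted p = 3.82e-05). Dusp1, a MAP kinase phosphatase, stood at 51.7, 34.995, 26.5 and 55.6 CPM against 13.1 to 18.7 CPM (median 17.5), highest in libraries 1 and 4, and changed by 1.33 ± 0.20 (SE). Egr4 was at 15.2 to 19.96 CPM against 6.78 to 9.27 CPM, a change of 1.16 ± 0.16 (SE). Fos stood at 2.74, 9.68, 3.82 and 5.5 CPM against 1.68 to 3.01 CPM (median 2.05), highest in library 2, and changed by 1.28 (adjusted p = 0.0187). Fosb stood at 8.09, 16.9, 8.72 and 8.71 CPM against 5.17 to 7.11 CPM, also highest in library 2, and changed by 0.81 (adjusted p = 0.0225). Without library 2 the changes were 0.84 and 0.49, and neither passed (adjusted p = 0.0772 and 0.0793). Without libraries 2 and 3 the list had 5 higher and 3 lower.

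Enzymes of cyclic nucleotides had 7 of 22 members higher and 2 lower, with a median of 0.10 that was -0.01 with upper quartile scaling. Pde7b, a cAMP phosphodiesterase, stood at 62.2, 99.9, 116 and 40.2 CPM against 29.5 to 36.6 CPM (median 34.3), a change of 1.25 ± 0.23 (SE, adjusted p = 0.00161). Pde1b and Pde8b were higher by 0.85 and 0.61, while Pde1a, like Pde1b a calmodulin-dependent enzyme, stood at 275 to 345 CPM against 411 to 482 CPM and was lower by 0.58 ± 0.09 (SE). Without library 1 the list had 4 lower. Leaving out libraries 1 and 4 gave 11 higher and 5 lower with a median of 0.30, and leaving out libraries 2 and 3 gave 7 higher and 6 lower with a median of -0.22. Of 23 dendritic mRNAs and postsynaptic scaffolds 6 were higher and 5 lower, with a median of 0.15 that was -0.01 with the 12 highest named genes removed. Without libraries 2 and 3 it was -0.05, with 9 higher and 8 lower. Camk2a, the alpha subunit of the main synaptic calmodulin kinase, stood at 4962, 3724, 3999 and 3914 CPM against 1876 to 2982 CPM (median 2863) and was higher by 0.68 ± 0.15 (SE). Cnksr2, a scaffold of Ras signalling, was higher by 0.65, and Kalrn, given above, by 5.47. Map2, the dendritic microtubule protein (chromosome 1, 66175273 to 66442583), stood at 195, 326, 247 and 204 CPM against 519 to 650.3 CPM (median 610.0). All values were below the hippocampus range, and the change was -1.28 ± 0.14 (SE, adjusted p = 5.77e-05).

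**Figure D4:**
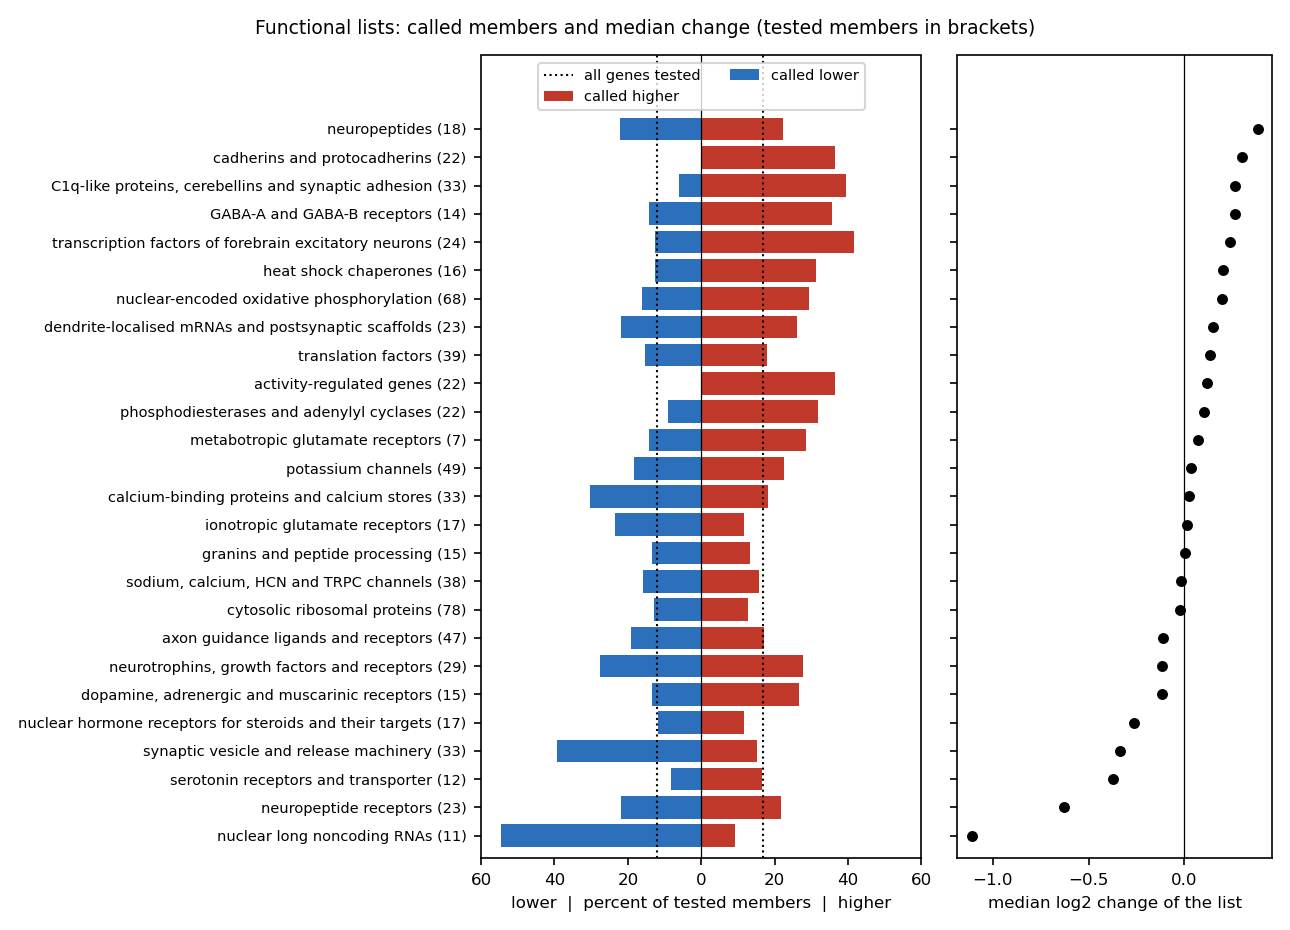
For 26 functional lists, the bars give the percent of tested members (number in brackets) called higher (red, to the right) or lower (blue, to the left), and the points give the median log2 change. Dotted lines mark all genes tested, 16.9% higher and 12.2% lower. The transcription factor, adhesion, cadherin and activity lists are among those past the higher line. The release machinery and noncoding RNA lists are among those past the lower line. Many other lists also pass a line, such as the GABA receptor list the higher 1 and the growth factor list both.

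Ribosomal and noncoding RNA set the libraries apart. Rn45s took 2.77% ± 2.14 of counts in granule cells (SD, n = 4) and 12.1% ± 0.476 in hippocampus (SD, n = 6). The difference was -9.30 percentage points, with an exact two-sided permutation p of 0.009524, the smallest that 210 assignments allow. Scaled like the other genes, Rn45s stood at 9573, 35009, 54784 and 11186 CPM against 115202 to 129305 CPM (median 119945), lowest in libraries 1 and 4, a change of -2.13 ± 0.42 (SE, adjusted p = 0.00241). Lars2, the mitochondrial leucyl-tRNA synthetase, stood at 1366, 7080.1, 8994 and 1320.2 CPM against 13643 to 17651 CPM (median 14374), again lowest in libraries 1 and 4, a change of -1.68 ± 0.48 (SE, adjusted p = 0.0196). Removing both before scaling left 4497 genes called. In the mossy-cell libraries Rn45s took 15.3% to 21.1% of counts, above the 11.5% to 12.9% of hippocampus. Lars2 took 1.86% to 3.61% there, also above the 1.36% to 1.76% of hippocampus.

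Of 11 mostly nuclear long noncoding RNAs 6 were lower and 1 higher, with a median of -1.11. Meg3, an imprinted noncoding RNA, stood at 409, 214, 75.3 and 414 CPM against 901 to 1434 CPM (median 1103). Library 3 was lowest and none reached the hippocampus range, and the change was -2.03 ± 0.38 (SE, adjusted p = 0.00179). Miat, Kcnq1ot1 and Snhg11 changed by -1.49, -1.35 and -1.44. Peg13, an imprinted noncoding RNA, was the higher member, at 360.3, 351, 359 and 333 CPM against 149.7 to 178 CPM (median 163), a change of 1.10 ± 0.08 (SE, adjusted p = 2.85e-06). The order of the granule-cell libraries differed between these groups: libraries 1 and 4 were lowest for Rn45s, and library 3 for Malat1 and Meg3. In the mossy-cell libraries Meg3 stood at 32.8 to 64.3 CPM. The part that nuclear or unbound RNA in a library had in these differences was not tested.

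The mRNAs of the translation and respiration machinery showed no common direction over all 4 libraries. Of 78 cytosolic ribosomal proteins 10 were higher and 10 lower, with a median of -0.02. Without libraries 1 and 4 there were 5 higher and 42 lower, and without libraries 2 and 3 there were 42 higher and 10 lower, so their direction differed between the pairs. Without any 1 library of either group the higher count ran from 4 to 18 and the lower count from 7 to 18. Some members did not follow the pairs. Rplp1 stood at 333, 249, 354 and 299 CPM against 539 to 618 CPM (median 561), and Rps10 at 138, 103, 133 and 133 CPM against 198 to 220.3 CPM (median 208), lower in every library by 0.88 and 0.72. Rpl11 changed by -0.79, and Rps28 and Rpl39 by 0.66 and 0.68. Ribosomal protein genes have many processed copies in the genome, so their counts depend on how the authors assigned reads, which is not given in the sources used here.

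Translation factors were also divided, with 7 of 39 higher and 6 lower and a median of 0.14. Eef1a1, the elongation factor, stood at 2194, 2051, 2029.6 and 2035 CPM against 902 to 1012 CPM (median 945). The 4 values lay within a narrow range above the hippocampus values, and the change was 1.12 ± 0.08 (SE, adjusted p = 1.93e-06). Eif1a and Eif3g, initiation factors, changed by -0.75 and -0.61. The higher count was 12 without granule-cell library 2, and the lower count was 3 without hippocampus library 2, 3, 4 or 5. Leaving out libraries 2 and 3 gave 16 higher and 11 lower. Nuclear-encoded genes of oxidative phosphorylation had 20 of 68 higher and 11 lower, with a median of 0.19, but 14 and 22 without libraries 1 and 4, and 42 and 10 without libraries 2 and 3. Uqcrb, a subunit of complex III, stood at 221, 91.9, 73.1 and 221 CPM against 35.99 to 46.9 CPM (median 39.98), a change of 1.90, and 1.02 without libraries 1 and 4. Ndufs3 of complex I was higher by 0.79 ± 0.10 (SE), and Atp5d of the ATP synthase and Uqcr11 were lower, by 1.19 and 0.79. Of 16 heat shock chaperones 5 were higher and 2 lower, with a median of 0.20, and the higher ones included the mitochondrial Hspa9 and Hspd1, by 0.67 and 0.59.

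**Figure D5:**
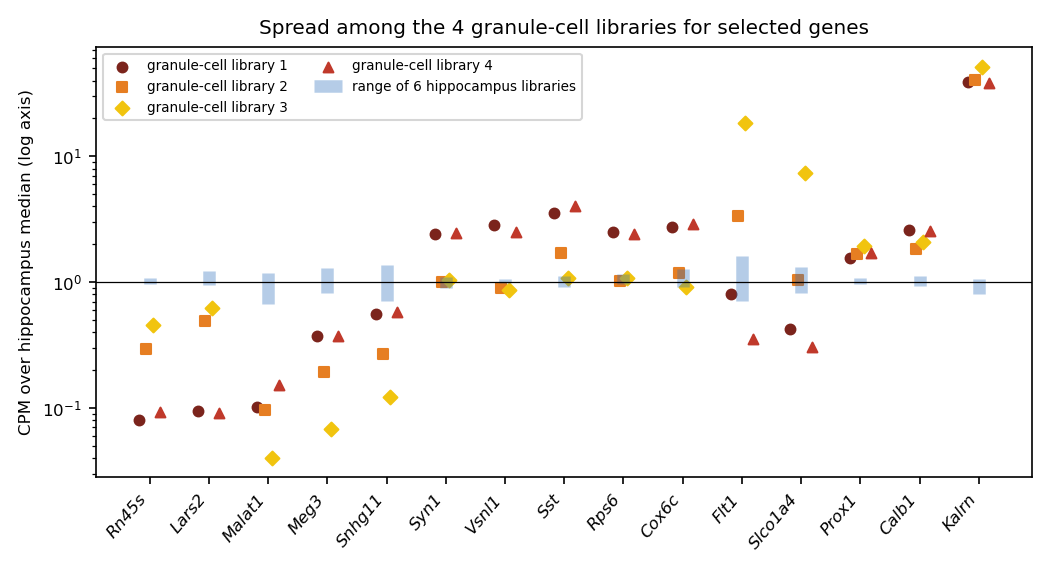
CPM of each granule-cell library divided by the hippocampus median, on a log axis, for 15 genes; markers and colours are the 4 granule-cell libraries and blue bars the range of the 6 hippocampus libraries. Libraries 1 and 4 lie together for Rn45s, Lars2, Syn1, Vsnl1, Sst, Rps6 and Cox6c, library 3 is highest for Flt1 and Slco1a4, and all 4 agree in direction for Malat1, Meg3, Prox1, Calb1 and Kalrn.

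Over the genes named here, 188 of 202 tested passed, and 180 of these kept their call and direction in every fit without 1 library. In both fits with a pair of granule-cell libraries left out, 178 did. The naming rule took called list members, and for the largest changes genes without overlap and with a stable sign without 1 library. These counts were therefore partly set by the selection and do not measure how stable calls are over all genes tested.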

How the data were processed

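Values are the counts that the authors deposited as raw reads per gene symbol, in 1 table per source, checked to be whole numbers. The submitters' processing notes name GRCm38, the aligner STAR (2.5.2b), the counter HTSeq (0.7.2) and edgeR. Annotation, strand and multimapping settings are not given in the sources used here, so overlapping or antisense genes and near-identical copies cannot be separated. Per the labels, cDNA was amplified from picogram amounts of RNA, and duplicates cannot be removed from such tables. The tables were joined on 24485 symbols, of which 22753 matched GENCODE M21 directly and 1321 through 1 RefSeq synonym. edgeR 4.0.16 in R 4.3.3 was run on the 10 libraries (filterByExpr, TMM, glmQLFit, glmQLFTest, two-sided, threshold 0.05). It was also tested on simulated data in which both groups had the same spread for each gene. Such data cannot show how the test does with the larger spread of the granule-cell libraries. CPM use TMM-scaled totals. Replicate pairs differed beyond sampling noise (chi-square per degree of freedom 6.82 to 232).

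Members and 40 gene lists were chosen with earlier results of these data known. Named genes are up to 12 per direction with the largest change (average log2 CPM of at least 3, groups that do not overlap, stable sign without 1 library, no clone or predicted gene), up to 4 called members per list, genes always named, and other list members. Alternatives used DESeq2 1.42.0 and limma 3.58.1, and are given in the closing section. Some genes named by this rule are not reported here.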

Additional observations from a re-analysis of the deposited data

Results flagged for a closer look

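In 23 of 416 groups of values, the highest or lowest library stood apart from the others by Dixon's criterion at 95%, which chance alone meets in about 1 in 20 groups. Of these, 16 were in granule-cell and 7 in hippocampus libraries.

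Granule-cell library 3 was high for Bcor (479 CPM), Prpf8 (3036 CPM), Bahcc1 (440.5 CPM), Flt1 (48.3 CPM) and Slco1a4 (50.1 CPM), and low for Htr5a (19.5 CPM). Library 4 was high for Atg7 (1148 CPM), Mir5109 (1.65 CPM), Lamp5 (40.9 CPM) and Cdh9 (99.1 CPM). Library 1 was high for Trhr (39.5 CPM) and Eef1a1 (2194 CPM) and low for Grik5 (26.7 CPM) and Bdnf (48.4 CPM). Library 2 was high for Fosb (16.9 CPM) and low for Rps10 (103 CPM). In hippocampus, library 2 was low for Cdh9 (24.2 CPM) and Slc8a1 (511 CPM), library 4 for Slc30a3 (39.99 CPM) and Scg2 (58.7 CPM), and library 6 for Glis3 (20.2 CPM). Library 5 was high for Egr4 (9.27 CPM) and had the fewest genes detected, 17600. The causes were not tested.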

How the results depend on the processing

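The count of 4507 called genes lay between 3532 and 5141 without any 1 library (2090 to 2836 higher, 1442 to 2305 lower), and within 1.5 times the main count under each scaling, filter and other test and with counts thinned to the smallest library. Counts of similar size need not hold the same genes. With upper quartile scaling 3748 of 4370 calls were among the 4507, and in limma-voom 3080 of 3614. In the DESeq2 Wald test 4504 of 5538 calls were among them. The count was 200 (93 higher, 107 lower) against a 2-fold change and 2411 (1523 and 888) at an adjusted p of 0.01, both stricter. Without granule-cell libraries 1 and 4 it was 7021, with 3396 lower, and without libraries 2 and 3 it was 7723, with 3941 lower. These pairs, and the removal of the 12 highest named genes, were chosen after seeing the data. With the replicate number as a block the count was 1522 (911 and 611), and 1741 (1111 and 630) with an added offset for GC content and length, over the 4 numbers that both groups hold. Deviations of same-numbered libraries had correlations of -0.07 to 0.02, against -0.09 to 0.12 for libraries with other numbers. With 4 same-numbered pairs this cannot decide whether they share an animal or a batch, which no label states. Under the block 152 of the 188 called named genes kept their call, and 177 did in limma-voom, which lost 11. Reversed values were -0.95 for Flt1 and -1.49 for Slco1a4 without libraries 2 and 3, and -0.18 for Vsnl1 without libraries 1 and 4. The Rn45s difference was -10.2 to -8.69 percentage points without any 1 library and -9.46 with Lars2 left out of the total. Where causes are not stated, the cause was not tested. The SD of log2 CPM was larger in the granule-cell libraries for 90.2% of genes. Thinned to the smallest library, 4145 of 14186 genes tested were called.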
